A study of Mus musculus with 24 samples.

Results

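The CMTM genes examined here are Cmtm3, Cmtm4, Cmtm6, Cmtm7 and Cmtm8, 5 of 21887 protein-coding genes of the annotation used. Peaks of these genes are the ChIP-seq peaks that lie in the gene or within 20 kb of either annotated end. These were 3 of 23341 H3K27ac peaks with doxycycline and 7 of 28902 without, and 11 of 101388 H3K4me1 peaks with doxycycline and 28 of 119362 without. H3K27ac is an acetylation of histone H3 found at active promoters and enhancers, and H3K4me1 a methylation found at enhancers and around promoters. The set was chosen by the lengths covered by H3K27ac peaks at Cmtm7 with and without doxycycline, so the values of both marks between conditions are given as a description, without a test.

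The cells were mouse erythroleukaemic cells from bone marrow, TgSpi1 line #763, which carry a Spi1 transgene, overexpress the transcription factor SPI1 (PU.1) and were grown with EPO. In the Dox_Treated group, 48 h of doxycycline had induced an shRNA against Spi1, and the Dox_Untreated group of the same cells received none. Both groups carry the transgene and the inducible shRNA, and no group is labelled as doxycycline without the shRNA, so the drug and the loss of SPI1 cannot be told apart. All cultures are of 1 numbered line, and the promoter that drives the transgene is not given in the sources used here. Each H3K27ac list stands for replicates 1 and 2 together and each H3K4me1 list for replicate 1, so there was 1 list per mark and condition, no replicate error could be computed. The number of reads behind each list is unknown.

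CMTM proteins (CKLF-like MARVEL transmembrane domain containing) are small proteins that cross the membrane several times and act in the trafficking and stability of surface receptors. CMTM7 is known from mice as a linker between the B cell receptor and BLNK that B-1a cells need, and from human tumours as a growth suppressor that promotes internalisation of EGFR. CMTM6 keeps the checkpoint ligand PD-L1 at the surface of human cells, with CMTM4 as its closest relative in that role, while CMTM3 and CMTM8 have been tied to turnover of EGFR in human cells.

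In mm10, 3 of the genes are neighbours on chromosome 9. Cmtm6 (114731157 to 114749359, plus strand) is followed after 7476 bp by Cmtm7 (114756836 to 114781993, minus strand) and after another 7349 bp by Cmtm8 (114789343 to 114844152, minus strand). The others adjoin on chromosome 8, where Cmtm3 (104339383 to 104347672, plus strand) ends 518 bp before the 3′ end of Cmtm4 (104348191 to 104395807, minus strand). Windows of neighbours therefore share peaks, and the 5 genes stand for 2 stretches of the genome, not for 5 separate observations.

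The promoter sequences below are shown because the genes split by whether an acetylation peak lies on the start site: at Cmtm7, Cmtm6 and Cmtm3 one did in both conditions, at Cmtm8 and Cmtm4 none did in either. Each runs 5′ to 3′ on the strand of the gene, from 250 bases before to 50 after the start site, and comes from RefSeq on GRCm38.p6, the assembly behind mm10. All 5 genes matched. Capitals mark GGAA, the core bound by ETS factors such as SPI1, and TTCC, the same core on the other strand.
Cmtm7 (chr9:114781944-114782243, minus strand): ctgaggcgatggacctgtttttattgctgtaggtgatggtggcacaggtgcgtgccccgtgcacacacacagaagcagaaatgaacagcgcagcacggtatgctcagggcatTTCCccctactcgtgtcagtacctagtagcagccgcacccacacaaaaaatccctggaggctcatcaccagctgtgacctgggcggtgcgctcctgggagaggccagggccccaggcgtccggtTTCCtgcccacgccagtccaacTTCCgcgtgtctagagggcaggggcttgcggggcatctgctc
Cmtm6 (chr9:114730953-114731252, plus strand): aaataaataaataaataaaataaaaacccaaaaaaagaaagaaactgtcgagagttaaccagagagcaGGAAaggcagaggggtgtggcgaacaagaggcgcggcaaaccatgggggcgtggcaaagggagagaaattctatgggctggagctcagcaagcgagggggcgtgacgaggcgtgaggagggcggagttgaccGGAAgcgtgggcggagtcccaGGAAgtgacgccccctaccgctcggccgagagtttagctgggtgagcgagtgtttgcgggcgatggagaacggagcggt
Cmtm3 (chr8:104340344-104340643, plus strand): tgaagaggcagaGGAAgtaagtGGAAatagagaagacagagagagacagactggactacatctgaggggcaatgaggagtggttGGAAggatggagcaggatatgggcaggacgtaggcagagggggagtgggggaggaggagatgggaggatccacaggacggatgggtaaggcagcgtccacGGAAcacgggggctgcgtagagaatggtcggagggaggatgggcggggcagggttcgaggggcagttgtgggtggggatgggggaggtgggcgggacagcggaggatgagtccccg
Cmtm8 (chr9:114844103-114844402, minus strand): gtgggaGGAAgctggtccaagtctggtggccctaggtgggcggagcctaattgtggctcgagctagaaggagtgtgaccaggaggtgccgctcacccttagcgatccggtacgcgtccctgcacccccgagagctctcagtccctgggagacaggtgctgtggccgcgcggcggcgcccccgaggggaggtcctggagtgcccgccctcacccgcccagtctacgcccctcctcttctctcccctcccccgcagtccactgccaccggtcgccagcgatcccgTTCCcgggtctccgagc
Cmtm4 (chr8:104395758-104396057, minus strand): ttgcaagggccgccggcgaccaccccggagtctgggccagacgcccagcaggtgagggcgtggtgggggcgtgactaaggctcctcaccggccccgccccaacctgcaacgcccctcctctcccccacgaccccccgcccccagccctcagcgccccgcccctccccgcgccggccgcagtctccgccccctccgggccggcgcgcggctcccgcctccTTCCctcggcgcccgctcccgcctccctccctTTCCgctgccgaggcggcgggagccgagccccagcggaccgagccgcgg
GGAA or TTCC occurred 3 times in the Cmtm7 promoter, 3 times at Cmtm6, 4 times at Cmtm3, and 2 times each at Cmtm8 and Cmtm4. Of 32851 promoters of this length, 96.0% hold at least 1 and the median is 3, so these counts are ordinary. The longer purine-rich form GAGGAA, searched on both strands and containing the core, was in the promoters of Cmtm3 and Cmtm8 once each and in 28.3% of all promoters. The erythroid GATA1 core AGATAA was on neither strand in any of the 5 and in 11.2% of all. CACCC, a core of Kruppel-like factors, occurred on either strand in each, 1 time at Cmtm7, Cmtm3 and Cmtm4, 2 times at Cmtm6 and 3 times at Cmtm8, and in 57.5% of all. The 300 bases at Cmtm4 were the richest in G and C of the 5, with 79.7% and 38 CpG pairs, against 61.0% and 15 pairs at Cmtm7 and medians of 52.7% and 7 over all promoters. A GC-rich promoter thus stood both among the acetylated start sites, as at Cmtm3 with 61.3%, and among the unmarked ones.

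At Cmtm7 the acetylation of the treated list was a remnant of that in the untreated list. With doxycycline a single H3K27ac peak remained in its window, chr9:114780549-114782051, 1503 bp wide, lying from -58 to 1444 bp relative to the start site, where positive positions are downstream. Without doxycycline the same start site lay in a peak of 7903 bp, chr9:114775149-114783051, from -1058 to 6844 bp, and 3 further peaks stood around the gene. The treated peak sat wholly inside the wide untreated one.

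The further untreated peaks had no treated counterpart. One of 4103 bp (chr9:114784549-114788651) lay from -6658 to -2556 bp, in the interval between Cmtm7 and the 3′ end of Cmtm8. One of 703 bp lay from -8208 to -7506 bp, inside the 3′ end of Cmtm8. The last, of 1303 bp, lay past the 3′ end of Cmtm7, between it and Cmtm6, from 28792 to 30094 bp. Together the acetylated length in the Cmtm7 window (the gene with 20 kb either side) was 1503 bp with doxycycline and 14012 bp without, a difference of -12509 bp. The treated length was 10.7% of the untreated.

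**Figure D1:**
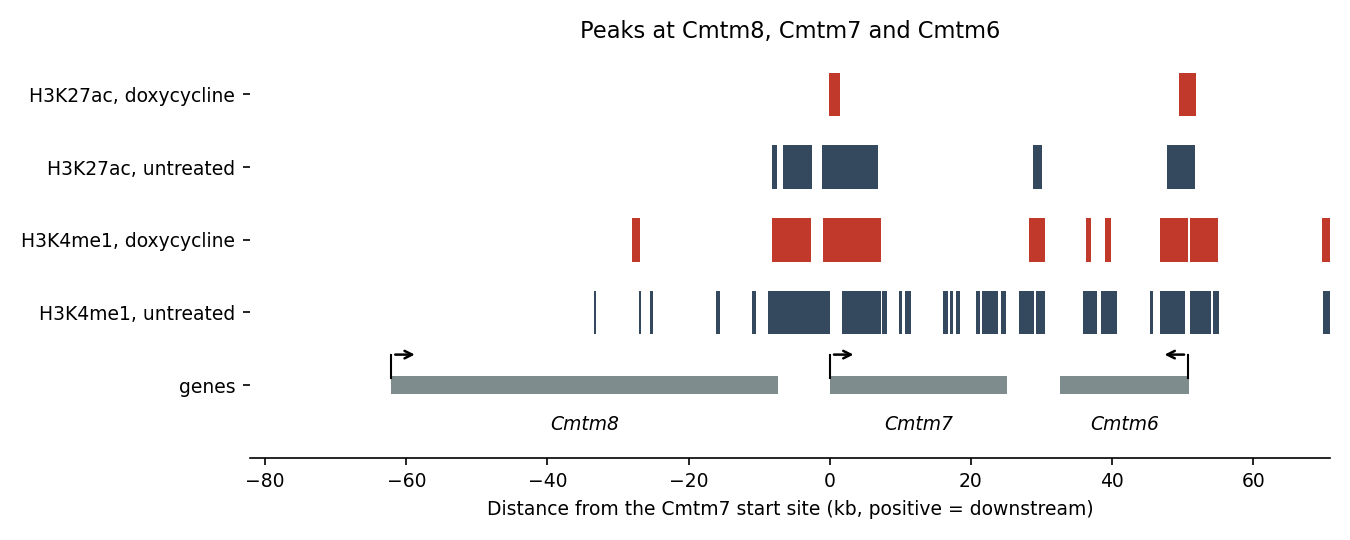
Peaks at Cmtm8, Cmtm7 and Cmtm6 by distance in kb from the Cmtm7 start site (positive is downstream), with a row for each mark and condition; filled blocks are peaks, grey bars genes and arrows start sites with their direction. The doxycycline H3K27ac row holds 2 peaks, on the starts of Cmtm7 and Cmtm6, and the untreated row 5. In H3K4me1, 9 peaks inside Cmtm7, 353 to 2253 bp wide, are in the untreated row alone.

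Among single peaks, the 2 widest at Cmtm7 kept unusually little for their width. The 7903 bp peak ranked 180 of 28902 untreated peaks by width, while the 1503 bp peak ranked 10576 of 23341 treated ones. The treated list covered 19.0% of the 7903 bp peak. Of the 184 untreated peaks at least as wide, 2, this one included, had a share as low, and their median was 95.0%. The 4103 bp peak upstream of Cmtm7 was covered by 0%. Of 1314 untreated peaks at least as wide, 5 had no treated overlap, and the median was 93.4%. The other peaks in the window, of 1303 and 703 bp, were also covered by 0%, which was less rare at their widths. No treated overlap was found for 663 of 12033 untreated peaks at least as wide as the first (5.51%). For the second it was 2339 of 18603 (12.6%). Of 772 genes with at least as much untreated acetylation in the window as Cmtm7, it had the smallest ratio of treated to untreated length, 10.7%, followed by Angpt1, which encodes a ligand of the TIE2 receptor, with 24.8%, and the median was 93.1%. In bp, Cmtm7 was 10th of 21887 genes in the downward direction. These ranks rest on the values for which Cmtm7 was chosen and are a description only.

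**Figure D2:**
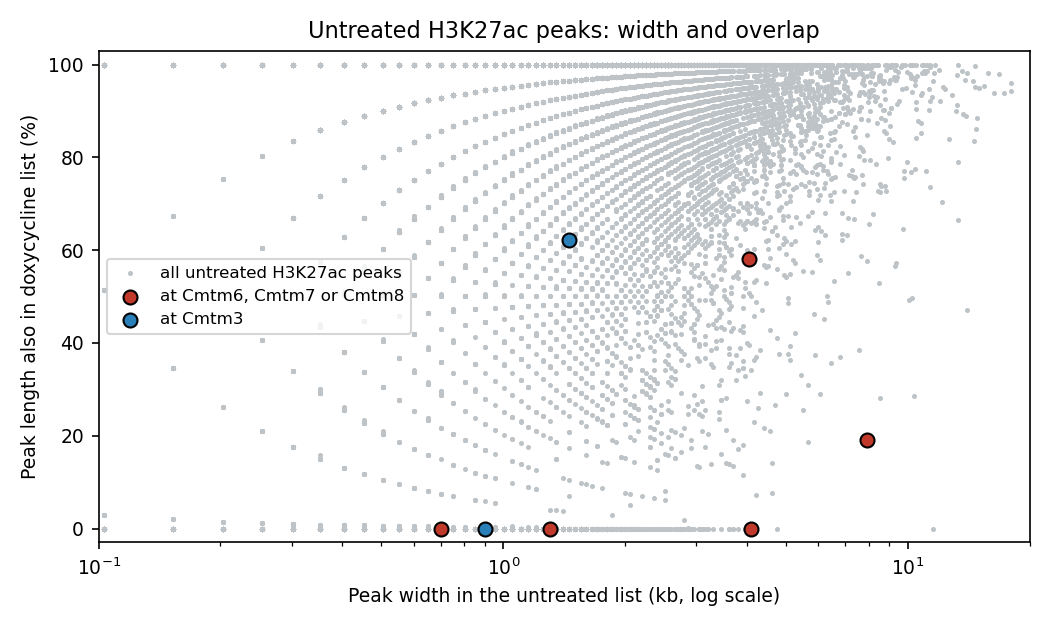
Each grey point is an untreated H3K27ac peak, by its width in kb (log scale) and the percentage of its length also covered in the doxycycline list; peaks under 100 bp are not drawn. The peaks at the CMTM genes are marked in red (chromosome 9) and blue (chromosome 8). The Cmtm7 start peak, 7903 bp wide, lies at 19.0%, a share that 2 of the 184 peaks at least as wide, itself included, do not exceed, and 4 of the 7 marked peaks lie at 0%.

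Where acetylation was missing around Cmtm7, H3K4me1 was still listed. Of the 12509 bp acetylated in the untreated list alone, 12159 bp, or 97.2%, carried H3K4me1 in the treated list, against 96.5% of such bp on all assembled chromosomes. This share was therefore that of the genome. The upstream stretch that held the 4103 bp and 703 bp acetylation peaks had an H3K4me1 peak of 5453 bp (chr9:114784699-114790151) with doxycycline and lay within one of 8753 bp (chr9:114781999-114790751) without.

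H3K4me1 differed at the start site of Cmtm7 in the opposite sense. With doxycycline a single peak of 8103 bp (chr9:114774799-114782901, from -908 to 7194 bp) ran across the start. Without doxycycline the mark was split there into a peak of 5453 bp inside the gene and the upstream one of 8753 bp, which left 1747 bp with no peak from just upstream of the start into the gene. That interval lay within the 7903 bp acetylation peak. The 8753 bp peak ended 6 bp short of the start. Within 1 kb of the start H3K4me1 covered 1909 bp with doxycycline and 995 bp without, and within 5 kb 8204 bp and 8254 bp. At Cmtm6 the gap at the start was present in both lists, with 347 bp in the treated and 697 bp in the untreated list, and at Cmtm3 the start was covered in both. Of 9573 start sites with an acetylation peak on them in both lists, 9.60% had H3K4me1 on the site in the treated list alone, as at Cmtm7, 2.58% in the untreated list alone, 22.6% in both and 65.2% in neither. The placing of Cmtm7 among these turned on 6 bp.

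Further into the gene, H3K4me1 peaks were in the untreated list alone. Between chr9:114753702 and 114774798, a stretch of 21097 bp, the treated list had no H3K4me1 peak, and the untreated list had 9 that lay wholly inside it, while a further one of 2153 bp reached in from its edge. The 9 were 353 to 2253 bp wide with a median of 703 bp, summed to 7177 bp and spanned from 7392 to 24944 bp downstream of the start. By the authors' score, which ranks peaks within a list, the strongest of them, of 2253 bp, was in the top 24.7% and the weakest, of 503 bp, in the top 90.8%. None of them touched an untreated acetylation peak. Gm9888, a lncRNA gene (114767574 to 114781672), lies inside Cmtm7 and overlaps part of this stretch. It also overlaps the H3K27ac peaks on the Cmtm7 start in both lists. Its peaks of either mark cannot be told apart from those of Cmtm7.

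Narrow H3K4me1 peaks were scarcer in the whole treated list, with 42834 peaks under 1000 bp against 62735 in the untreated list. Over the whole lists, 27.3% of 76401 treated and 27.9% of 84908 untreated peaks between 353 and 2253 bp wide had no counterpart in the other list. The stretch was defined by its lack of treated peaks, so the lack of counterparts inside it follows from that choice. Runs of at least 9 consecutive peaks found in 1 list alone numbered 112 in the untreated list and 31 in the treated list. Of these, 3 untreated runs, the one at Cmtm7 included, and 0 treated runs lay wholly within a span of 17553 bp. That limit was the span of the Cmtm7 run itself, and longer runs with 9 peaks as close together were not counted. The Cmtm7 run was singled out after its values were seen. The part that the number of narrow peaks in each list has in this result was not tested.

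Over the Cmtm7 window H3K4me1 covered 17365 bp with doxycycline and 30101 bp without, a difference of -12736 bp. The treated length was 57.7% of the untreated, above the limit of 0.5 times used here for calling a gene lower. Of the untreated H3K4me1 bp, 51.2% were covered again in the treated list, against 80.9% on all assembled chromosomes. In bp, 67 of 21887 genes had a larger difference downward. In both marks together, 7 other protein-coding genes had differences at least as far down as Cmtm7.

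Cmtm6 kept its start peak in a shorter form. The peak on the Cmtm6 start was 2403 bp wide with doxycycline (chr9:114730149-114732551, from -1054 to 1348 bp) and 4053 bp without (chr9:114730199-114734251, from -1004 to 3048 bp). The upstream edges were alike and the downstream edge was nearer to the start in the treated list. The treated list covered 58.1% of the untreated peak, a share that 5.55% of the 1351 untreated peaks at least as wide did not exceed. Inside Cmtm6, H3K4me1 had 3 peaks with doxycycline, of 4003, 853 and 703 bp, and 4 without, of 3553, 2253, 2003 and 353 bp. The peak nearest the start was the wider one with doxycycline. The untreated peaks of 2253 and 2003 bp overlapped the narrower treated ones of 853 and 703 bp. The untreated peak of 353 bp, from 5046 to 5398 bp and so nearer to the start than those of 2253 and 2003 bp, had no counterpart. Over the window, acetylation covered 2403 bp with doxycycline and 5356 bp without, and H3K4me1 12810 bp and 21587 bp in the same order.

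Cmtm8 had no peak of either mark at its start in any list. From the Cmtm8 start, the nearest H3K27ac peak was 62101 bp away with doxycycline and 53951 bp without, and the nearest H3K4me1 peak 34201 bp and 28751 bp away. Its acetylation difference, 1503 bp in the treated against 12709 bp in the untreated list, came from peaks it shares with Cmtm7, since the 2 windows overlap by 32651 bp. The peak on the Cmtm7 start gave -6400 bp of it, and the peaks of 4103 and 703 bp nearer to Cmtm8 gave -4806 bp. In the gene itself H3K27ac covered 0 bp with doxycycline and 703 bp without. H3K4me1 had 2 peaks in the gene with doxycycline, 1 at the 3′ end and 1 of 1003 bp, and 6 without, of which 4 narrow ones, 303 to 503 bp wide, had no treated counterpart. The 1003 bp peak was among the weakest of its list, in the top 98.0% by score.

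Cmtm3 kept its start peak, and an upstream one was in the untreated list alone. The peak on the Cmtm3 start was 903 bp wide with doxycycline (chr8:104340499-104341401) and 1453 bp without (chr8:104339999-104341451), and the treated list covered 62.1% of the untreated peak. The start site of the promoter table lies inside the annotated gene, at 104340594. A further untreated acetylation peak of 903 bp, from -7195 to -6293 bp and nearer to the neighbouring Cmtm2b, had no treated counterpart, although H3K4me1 was listed there in both conditions, with 2053 bp and 1953 bp. H3K4me1 on the start was 2353 bp wide with doxycycline and 3453 bp without. A peak of 453 bp inside the gene was in the untreated list alone.

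Cmtm4 carried no peak of either mark in its body in any of the 4 lists. The peaks that its window holds are those of Cmtm3, on the far side of its 3′ end. The nearest H3K27ac peak to the Cmtm4 start was 39792 bp away with doxycycline and 39692 bp without. Its equal lengths to Cmtm3 (903 bp and 2356 bp of H3K27ac, 4406 bp and 5859 bp of H3K4me1) are thus those of its neighbour.

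**Figure D3:**
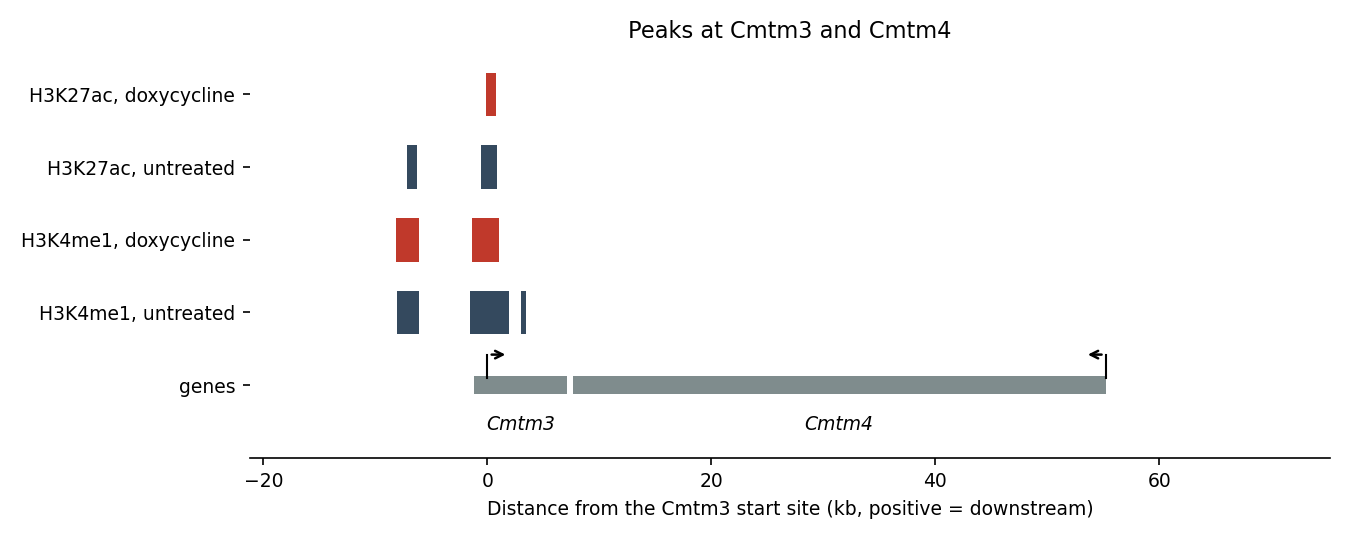
Peaks at Cmtm3 and Cmtm4 by distance in kb from the Cmtm3 start site (positive is downstream), with a row for each mark and condition; filled blocks are peaks, grey bars genes and arrows start sites. The doxycycline H3K27ac row has 1 peak, of 903 bp on the Cmtm3 start, the untreated row has 2, and no row has a peak inside Cmtm4.

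Set side by side without shared bp, the genes differed in how much each contributed. For this each bp was given to the nearest of these 5 genes, so that the interval between Cmtm3 and Cmtm2b counts for Cmtm3. With only the peaks to which Cmtm3 is the nearest of all genes, its H3K27ac was 903 bp with doxycycline and 1453 bp without. H3K27ac covered 1503 bp with doxycycline and 9127 bp without at Cmtm7, 2403 bp and 5252 bp at Cmtm6, 0 bp and 3686 bp at Cmtm8, 903 bp and 2356 bp at Cmtm3, and 0 bp in both lists at Cmtm4. H3K4me1 covered 9677 bp with doxycycline and 18354 bp without at Cmtm7, 12206 bp and 14365 bp at Cmtm6, 5486 bp and 6998 bp at Cmtm8, and 4406 bp and 5859 bp at Cmtm3. Cmtm7 had the largest difference in both marks, and with doxycycline its H3K4me1 length lay below that of Cmtm6, whereas without doxycycline it lay above.

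**Figure D4:**
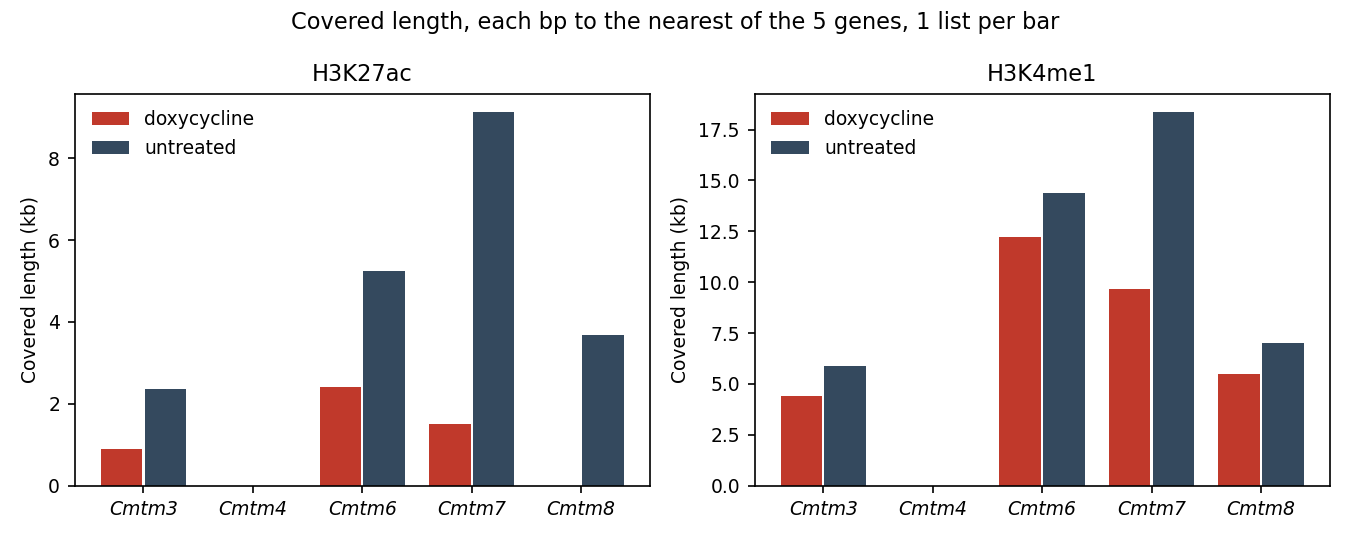
Length in kb covered by H3K27ac (left) and H3K4me1 (right) peaks, each bp given to the nearest of the 5 genes, with doxycycline (red) and untreated (dark) lists; each bar is 1 list, so there are no error bars. All bars of Cmtm3, Cmtm6, Cmtm7 and Cmtm8 are shorter with doxycycline, and Cmtm4 has none.

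Called by a treated length at most 0.5 times the untreated, all 5 genes were lower in H3K27ac, beside 4.92% of the 12884 genes with at least 1000 bp in either list. This count follows from the choice of the genes and from shared peaks, and nothing is read from it. Over the gene body alone Cmtm3 did not meet the rule, with 903 bp against 1453 bp, and Cmtm4 had 0 bp in both lists. A treated length at least 2 times the untreated was found at 0 of the 5, beside 4.65% of the genes. In H3K4me1, 0 of the 5 were lower by that rule, beside 2.71% of 16224 genes, and 0 higher, beside 3.62%, while all 5 windows were shorter with doxycycline. Across genes, 36.6% were shorter and the median difference was 753 bp; across the 5 it was -3571 bp. In H3K27ac the medians were -50 bp across genes and -2953 bp across the 5. Of the peaks, all 3 treated H3K27ac peaks had an untreated counterpart (exact Clopper-Pearson 95% interval 29.2 to 100%) and 3 of 7 untreated ones a treated one, or 42.9% (9.90 to 81.6%). In the whole H3K27ac lists 82.9% of treated and 72.6% of untreated peaks had one. In H3K4me1 all 11 treated (71.5 to 100%) and 13 of 28 untreated peaks, or 46.4% (27.5 to 66.1%), had one, beside 79.2% of treated and 73.3% of untreated peaks in the whole lists. These intervals cover counting error over peaks only. The peaks lie in 2 stretches and are not independent, and the genes were chosen for H3K27ac at Cmtm7, so nothing is read from these shares.

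**Figure D5:**
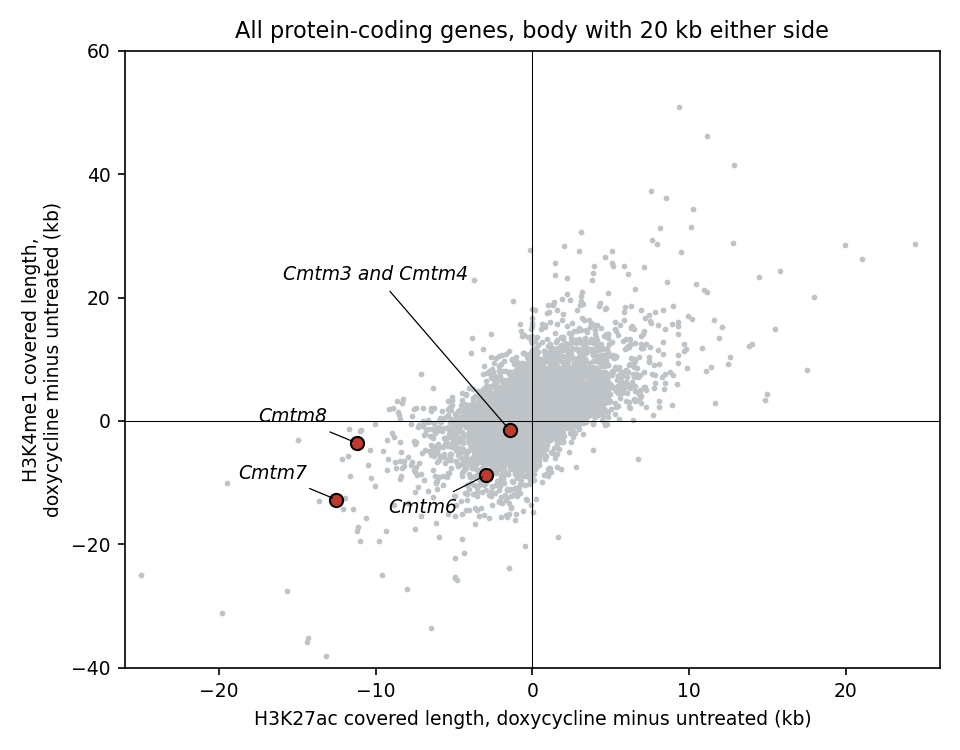
Each grey point is a protein-coding gene, by the difference in H3K27ac (horizontal) and H3K4me1 (vertical) covered length in kb, doxycycline minus untreated, over the gene with 20 kb either side; 3 genes fall outside the axes. The CMTM genes are red. Cmtm7 lies far to the lower left, at -12509 and -12736 bp, and Cmtm8 shares its acetylation peaks.

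A wider window took in peaks of neighbouring genes. With 50 kb either side the Cmtm6 H3K27ac difference was -14965 bp, against -2953 bp with 20 kb, because the window then reached the peaks of Cmtm7. The Cmtm8 H3K4me1 difference was -12692 bp, against -3571 bp. Beyond the 20 kb limit, the nearest H3K27ac peaks below the chromosome 9 window were 20956 bp beyond it with doxycycline and 21056 bp without. In H3K4me1 a treated peak of 853 bp lay 606 bp outside and an untreated one of 2103 bp lay 2606 bp outside, while just inside stood peaks of 1303 bp with doxycycline and 1153 bp without. On chromosome 8 an untreated H3K4me1 peak of 453 bp lay 3532 bp outside.

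The other 5 genes of the family had smaller differences than Cmtm7. Cklf, the chemokine-like factor that names the family, had 7315 bp of H3K27ac with doxycycline and 7662 bp without, and 16156 bp and 15200 bp of H3K4me1. Cmtm1, Cmtm2a and Cmtm5 had no H3K27ac in either list. Cmtm2b was lower in H3K27ac, with 903 bp and 2356 bp, from 2 peaks that also lie in the Cmtm3 window. The one in the untreated list alone is nearer to Cmtm2b, and the other is on the Cmtm3 start. Of the 5, 2 could be compared in H3K27ac, both shorter with a median of -900 bp. In H3K4me1 all 5 could be compared, with 2 shorter, 3 longer and a median of 47 bp. Cmtm2a was higher by the 2 times rule, with 1656 bp against 753 bp of H3K4me1. Dync1li1, a dynein light intermediate chain gene beside Cmtm6, had 4556 bp against 7012 bp of H3K27ac and 25989 bp against 22495 bp of H3K4me1. Of the 18 other genes with a MARVEL domain or a related fold that matched (1 symbol, Sypl1, did not), 13 could be compared in H3K27ac, of which 6 were shorter and 7 longer with a median of 400 bp, and 1 was lower by the 0.5 rule. That gene was Marveld2, a tricellular junction protein, with 0 bp against 1559 bp. In H3K4me1, 5 of 16 were shorter and 11 longer, with a median of 716 bp, and Myadm, a myeloid-associated membrane protein, was lower, with 6262 bp against 13574 bp.

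Among a list of partners of CMTM proteins and genes of their pathways, the PD-1 ligand genes had less acetylation in the treated list. Pdcd1lg2, which encodes PD-L2, had 8818 bp of H3K27ac with doxycycline and 16369 bp without, and its neighbour Cd274, which encodes PD-L1, 10124 bp and 14271 bp, neither of which met the 0.5 rule. Their windows overlap. Blnk, the B cell linker, had 3106 bp and 2106 bp. Cd79a, a B cell receptor chain, had 7556 bp and 8109 bp, and Btk, a kinase of that pathway, 14965 bp and 17324 bp. Egfr had no H3K27ac in either list and 4668 bp against 1612 bp of H3K4me1. Cd79b, the other receptor chain, also had no H3K27ac, and 1806 bp against 4718 bp of H3K4me1. Of the 8 genes in this list, 6 could be compared in H3K27ac, with 4 shorter, 2 longer and a median of -1456 bp, and 8 in H3K4me1, with 4 shorter, 4 longer, 1 of them lower and 1 higher by the rule.

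The genes most like Cmtm7, leaving out the other 4 genes examined here, were found by Euclidean distance between covered lengths in bp. Over all 4 lists the nearest were Slc45a3, a solute carrier, at 3789 bp, where H3K27ac covered 2627 bp with doxycycline and 10592 bp without and H3K4me1 16279 bp and 29638 bp, then Spin1 at 6600 bp and Pebp4 at 6671 bp. Over the 2 H3K27ac lists alone they were Xylt1 at 2372 bp, Nfatc1 at 2488 bp and Lta at 2684 bp. Over the 2 H3K4me1 lists they were Dock11 at 555 bp, Pebp4 at 647 bp and Tm9sf2 at 694 bp.

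By H3K27ac near start sites, the lists matched the erythroid label of the cells. Of 6 erythroid marker genes with a listed start site, 6 had H3K27ac within 1 kb of it with doxycycline and 5 without, Alas2 being the exception. Of 5 myeloid markers 0 had it in either list, nor did the B cell marker Pax5 or the stromal marker Pdgfra, and the T cell kinase gene Lck had it with doxycycline alone. Summed over the 5 myeloid genes, H3K27ac within 5 kb covered 3828 bp with doxycycline and 4678 bp without, and H3K4me1 covered 19309 bp and 25850 bp. H3K4me1 was within 1 kb of the start of Cd68 and Lyz2 in both conditions. The same held for the T cell genes Cd3e and Lck and for Pdgfra. Over the 6 erythroid genes, H3K27ac covered 56187 bp with doxycycline and 44272 bp without, and H3K4me1 131973 bp and 102605 bp. At Pax5, H3K4me1 covered 3212 bp with doxycycline and 6268 bp without. The myeloid lengths of both marks and the Pax5 length of H3K4me1 were shorter with doxycycline, as at Cmtm7. Pax5 had 0 bp of H3K27ac in both lists. H3K4me1 was also shorter at the stromal gene Pdgfra, with 11245 bp against 13151 bp. The erythroid lengths were longer in both marks. So were those of the T cell genes Cd3e and Lck, with 3628 bp against 2278 bp of H3K27ac and 21951 bp against 21510 bp of H3K4me1. The part of these differences in the result was not tested.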

How the data were processed

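The 4 deposited ChIP-seq peak lists were used, out of 24 samples; the samples for other targets and for entinostat and DMSO were not analysed here. Per the submitters' processing notes, bcl2fastq 2.17.1.14 and BWA were used, on mm10; how peaks were called and replicates joined is not given in the sources used here. In the deposited H3K27ac files each peak has a position and a width (end minus start plus 1). The deposited H3K4me1 lists add a score by the authors, which served to order peaks inside one list, and a column that may be a p-value, not used. Starts and ends were taken as 1-based and inclusive; contigs outside assembled chromosomes were left out.

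Gene positions, start sites and promoters came from RefSeq tables on GRCm38.p6, which give no exons. Covered length is the bp under peaks, overlaps counted once. Peaks counted as shared at 1 bp of overlap. No count model or p-value was possible with 1 list per condition. Python 3.11.15, numpy 2.4.6, pandas 2.3.3, scipy 1.17.1, bedtools 2.31.1 and matplotlib 3.10.9 were used. Covered lengths were tested on simulated data, with 1000 of 1000 intervals equal to a base-by-base count, and shared peaks were checked against bedtools. Members and lists were chosen with earlier results of these data known. Named genes were the members, the lists for the family and the MARVEL genes, and a list of partners and pathway genes of CMTM proteins. Neighbours within 20 kb and the 3 nearest genes per comparison of lengths were also named. The rule for the nearest genes named a likeness per mark and over 4 lists, and both are given.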

Additional observations from a re-analysis of the deposited data

How the results depend on the processing

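The direction at Cmtm7 was downward in both marks under all 8 alternatives, from -14159 to -5400 bp in H3K27ac and from -13752 to -5435 bp in H3K4me1. In H3K27ac this direction followed from the choice of Cmtm7, whose treated peak lay wholly inside a wider untreated one, and is no support. Leaving out peaks under 200 bp changed neither difference, and equal peak numbers did not change that of H3K27ac. Neither alternative could have done so. The window held no peak under 200 bp, and its H3K27ac peaks were all wide enough to be kept at equal numbers. The size of the difference depended on how far the window reached. Over the gene body alone the differences were -5400 bp in H3K27ac and -5435 bp in H3K4me1, and with only the peaks nearest to Cmtm7 -6400 bp and -6680 bp. H3K4me1 was -8480 bp with 5 kb either side and -8412 bp with the better 50% of each list. In that 50%, 9 of 12 untreated H3K4me1 peaks at the genes, or 75.0%, had a treated counterpart. The share over all peaks of that 50% was not computed, so nothing is read from the 75.0%. A covered length was taken as alike within 1.5 times. The better 50% was the higher scores in H3K4me1 and the wider peaks in H3K27ac, whose lists hold no score. The median H3K27ac width was 1353 bp with doxycycline and 1003 bp without, so that cut fell at different widths. Among all genes, the share lower by the 0.5 rule was 14.0% in H3K27ac and 4.72% in H3K4me1 in the same 50%. With no minimum length it was 5.78% in H3K4me1, and the share higher by 2 times was 5.56%. The cause was not tested. At Cmtm4 the difference was 0 bp in H3K27ac under 3 of the 8 alternatives and in H3K4me1 under 2, and no alternative gave an upward difference at any of the 5 genes. No paired analysis was possible because there is 1 list per mark and condition, and for the same reason no replicate could be left out. Depth limits were not computed, as no read counts were used.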

Other observations

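The 7 other protein-coding genes whose windows had differences at least as far down as Cmtm7 in both marks were Cdk6, Tec, Angpt1, Rabgap1l, Ptpre, Sik3 and Etv6, named after their values were seen. All 7 had more untreated acetylation than Cmtm7. At Tec, a kinase gene of the family of Btk, H3K27ac covered 8583 bp with doxycycline and 28407 bp without, and H3K4me1 67241 bp and 98377 bp. At Etv6, an ETS family repressor gene, H3K27ac covered 9765 bp with doxycycline and 22951 bp without, and H3K4me1 75449 bp and 113506 bp. At Ptpre, a receptor phosphatase gene, H3K27ac covered 19421 bp with doxycycline and 33727 bp without, and H3K4me1 49347 bp and 84528 bp. At Cmtm7 most of the difference lay in 3 untreated peaks within 10 kb of its start, where 12709 bp were acetylated without doxycycline and 1503 bp of these also with it.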
